A study of Saccharomyces cerevisiae with 15 samples.

Results

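The transcripts of 55 genes that build the small ribosomal subunit of Saccharomyces cerevisiae were followed through a nitrogen downshift (N-downshift), in which growing cells used up glutamine and continued on proline. These genes code for the small subunit processome and for the factors that act on the 40S precursor after it. The list is one of names with no threshold on a measured value. The genes were, however, listed with earlier results of these data known. They are 55 of the 5449 genes that have a probe set for a single S. cerevisiae gene on the array. The array's annotation lists 54 of them under the symbol used here and DBP4 under the symbol HCA4. Each gene was measured by 1 probe set, and none of these probe sets carries a mark for probes shared within a gene family or with unrelated sequences. No member lies next to another on a chromosome.

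All samples came from wild-type YSBN6 grown in batch fermentors on glucose with glutamine and proline as nitrogen sources, and time 0 is the moment when the broth no longer held glutamine that mass spectrometry could detect. Samples from before and after this moment share strain, vessel and starting medium, and differ in time. Total RNA was measured on 15 Affymetrix arrays. 3 separate cultures, BY013, BY009 and BY010, gave 1 array each at −10, 7 and 24 min, and BY013 alone gave the arrays at −5, 3, 10, 14, 56 and 120 min. The label of −10 min is nominal, since the study's own list of experiments places the samples so labelled earlier, at times that differ among the cultures and were not used here. The summed intensity of an array lay between 22691203 and 24045522. URA3, LEU2, HIS3, LYS2 and ADE2, biosynthetic genes that many laboratory strains lack, were above background on all 15 arrays, and the proline and γ-aminobutyrate genes PUT1, PUT2, PUT4 and UGA4 and the allantoin permease gene DAL4 were higher at 24 min than at −10 min.

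The small subunit processome is a large particle that forms on the nascent ribosomal RNA precursor in the nucleolus and folds, modifies and cleaves the part that becomes 18S RNA. UTP-A and UTP-B, both built of several proteins, bind the 5′ end of the precursor first, the U3 small nucleolar ribonucleoprotein (snoRNP) then base-pairs with it, and RNA helicases, a GTPase and methyltransferases remodel the particle before a smaller pre-40S particle leaves for the cytoplasm. In growing yeast these genes are known to be expressed together and to be strongly reduced when nutrients or TORC1 signaling fail.

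Every one of the 55 transcripts was lower after the shift, at 7 min as well as at 24 min. At 7 min against −10 min, 55 of 55 passed as lower (limma, adjusted p under 0.05), where 20.9% of the 5498 probe sets tested did. The log2 change had a median of −0.83 and ranged between −1.62 for the helicase gene DHR2 and −0.19 for SNU13, beside a median of −0.01 over all probe sets. At 24 min against −10 min, again 55 of 55 were lower, against 35.2% of all probe sets, with a median log2 change of −3.62 and a range of −5.65 for NSR1 to −1.26 for UTP30. The median over all probe sets was 0.09. In both comparisons the 3 later arrays were below the 3 arrays at −10 min for all 55 members, which held for 29.5% of all probe sets at 7 min and for 36.2% at 24 min. At 24 min 54 members were more than 4-fold lower, UTP30 being the exception, and 41 were more than 8-fold lower. These limits were passed by 4.73% and 2.86% of all probe sets. Since RNA was taken from whole cultures and arrays were scaled to each other, fewer cells with a transcript and less of it per cell cannot be told apart.

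**Figure D1:**
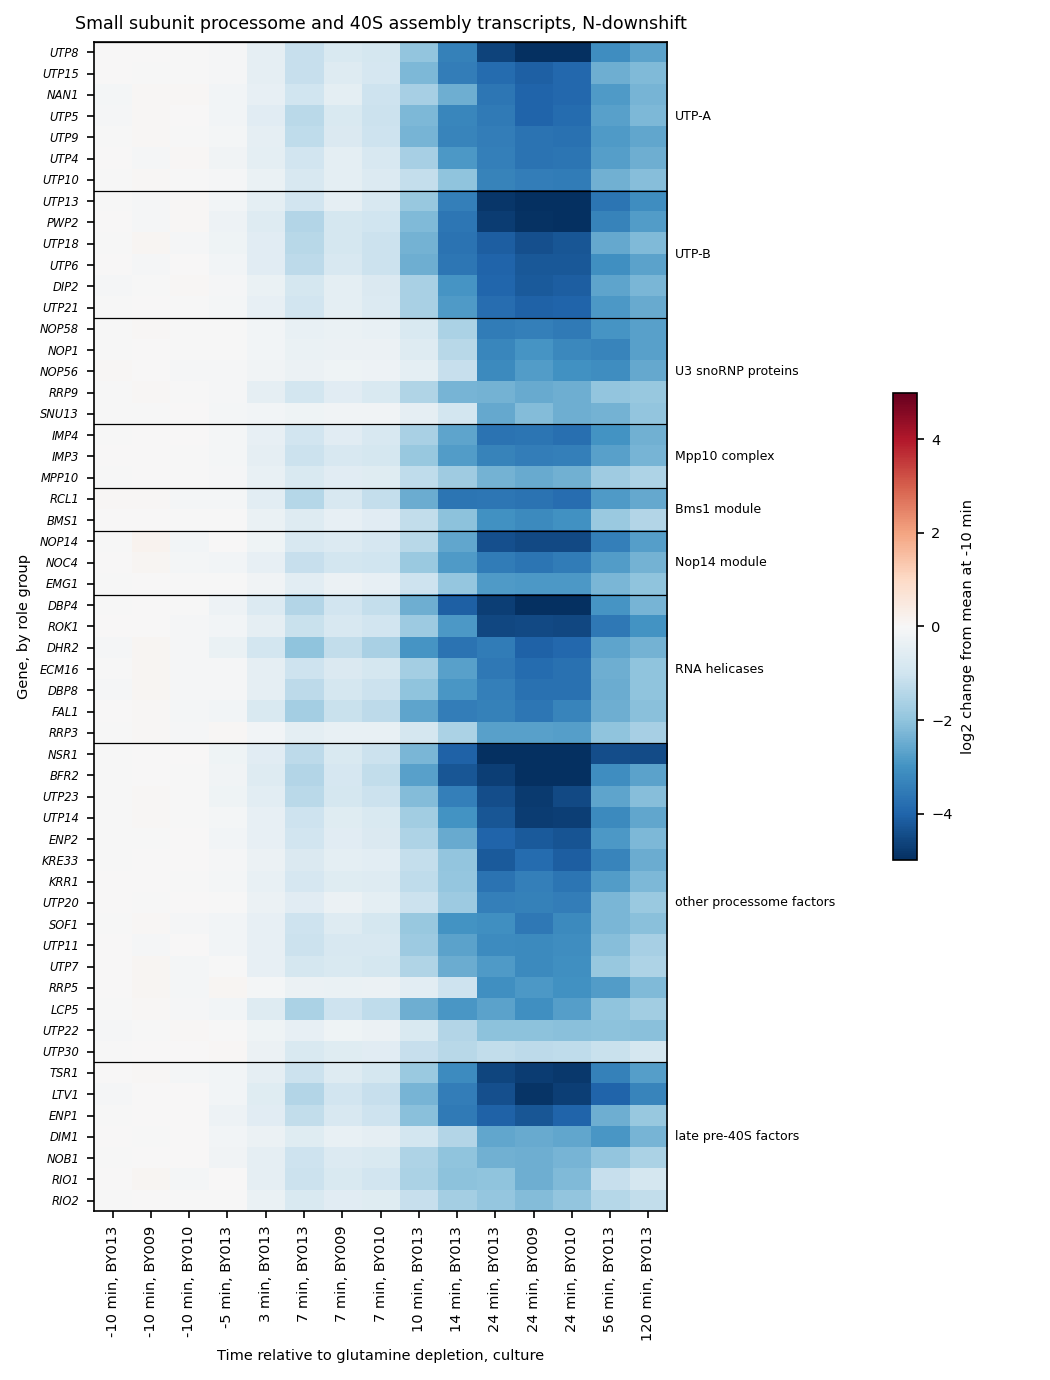
Log2 change of each of the 55 transcripts from its mean at −10 min, 1 row per gene by role group and 1 column per array by time and culture (blue is lower). The 3 columns at 24 min are the darkest for most genes. The box C/D genes NOP1, NOP56, NOP58 and SNU13 stay pale up to 14 min, as do some others, among them RRP5 and UTP30.

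UTP-A is the first subcomplex on the 5′ external spacer of the precursor. Its 7 transcripts were lower by similar amounts, with log2 changes at 24 min of −4.99 to −3.43 and at 7 min of −1.05 to −0.67. In the order BY013, BY009 and BY010, which is kept below, UTP8 had intensities of 2179, 2154 and 2086 at −10 min, 958, 1256 and 1155 at 7 min and 87.3, 63.7 and 55.1 at 24 min. The 3 times did not overlap, and at 7 min BY013 was the lowest culture. UTP8 was 31.7-fold lower at 24 min than at −10 min (log2 −4.99, SE 0.14, adjusted p = 1.15e-11), though BY009 and BY010 were then at or below the background intensity of 72.2, the 95th percentile of probe sets for another organism. UTP10, a very large repeat protein and the least changed of the subcomplex, had 4833, 5080 and 4768 at −10 min, 2780, 3442 and 3034 at 7 min and 479, 448 and 432 at 24 min. It was well above background at all times and 10.8-fold lower at 24 min (log2 −3.43, SE 0.071, adjusted p = 9.51e-13).

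UTP-B, most of whose proteins carry WD repeats, is the next to bind and links the spacer to U3. Its 6 transcripts had the deepest median of the role groups at 24 min, with log2 changes of −5.09 to −3.95 around −4.22, while at 7 min the median was −0.90, close to that of UTP-A (−0.87). UTP13 had 3436, 3417 and 3696 at −10 min, 1817, 2569 and 2040 at 7 min and 121, 98.5 and 92.4 at 24 min. All cultures were far below their starting level by 24 min, without overlap, and UTP13 was 34-fold lower (log2 −5.09, SE 0.12, adjusted p = 2.42e-12). UTP21, the least changed of the group, had 4324, 4409 and 4282 at −10 min, 2251, 3069 and 2674 at 7 min and 309, 263 and 273 at 24 min. As for UTP13, BY009 was the highest of the 3 cultures at 7 min, and the times did not overlap. The change of UTP21 at 24 min was 15.4-fold (log2 −3.95, SE 0.096, adjusted p = 2.51e-12).

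The protein genes of the U3 snoRNP fell into 2 kinds. NOP1 (the fibrillarin methyltransferase), NOP56, NOP58 and SNU13 code for the core proteins shared by all box C/D snoRNPs, SNU13 also being part of the U4 spliceosomal particle, and RRP9 codes for a protein specific to U3. SNU13 had 15720, 15588 and 15964 at −10 min, 13453, 13997 and 14047 at 7 min and 2684, 3466 and 2934 at 24 min. NOP56 had 8783, 8553 and 8164 at −10 min, 7012, 7306 and 7168 at 7 min and 945, 1224 and 1040 at 24 min. For both genes the arrays at 7 min were only a little below those at −10 min, still without overlap, and the arrays at 24 min were far below. At 7 min SNU13 was lower by a log2 change of −0.19 (SE 0.069, adjusted p = 0.0474) and NOP56 by −0.25 (SE 0.073, adjusted p = 0.0184). Both calls were weak. Without BY013 the adjusted p was 0.0873 for SNU13 and 0.0573 for NOP56, and without BY010 it was 0.217 and 0.0971, in limma fits of the other arrays.

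NOP58 had 11611, 12199 and 11660 at −10 min, 9026, 9398 and 9240 at 7 min and 1059, 1092 and 1013 at 24 min. Its arrays at 24 min lay close together, and its change at that time was the largest there, 11.2-fold (log2 −3.49, SE 0.036, adjusted p = 1.02e-14). NOP1 changed by −0.31 at 7 min and by −3.14 at 24 min (SE 0.067 for both). RRP9, in contrast, was already 1.69-fold lower at 7 min (log2 −0.75, SE 0.081, adjusted p = 2.57e-05) and 5.41-fold lower at 24 min (log2 −2.44, SE 0.081, adjusted p = 4.13e-11). Between 7 and 24 min, RRP9 thus changed by −1.68 and the 4 core genes by −3.13 to −2.20. The split of the U3 group into core and RRP9 was made after the values had been seen.

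MPP10, IMP3 and IMP4 form a complex that brings U3 and the precursor together. MPP10 had 1900, 1962 and 1915 at −10 min, 1132, 1298 and 1263 at 7 min and 371, 338 and 367 at 24 min, and was 5.38-fold lower at 24 min (log2 −2.43, SE 0.064, adjusted p = 5.13e-12). IMP4 had 3808, 3971 and 3917 at −10 min, 1990, 2606 and 2259 at 7 min and 301, 309 and 282 at 24 min. The cultures overlapped at no pair of times for either gene, and IMP4 was 13.1-fold lower at 24 min (log2 −3.71, SE 0.082, adjusted p = 1.23e-12). IMP3 stood between them at −3.42 (SE 0.072).

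BMS1 codes for the GTPase of the processome and RCL1 for the cyclase-like protein that it binds. RCL1 had 2208, 2239 and 1987 at −10 min, 806, 1227 and 939 at 7 min and 176, 165 and 151 at 24 min. BMS1 had 4004, 4021 and 3924 at −10 min, 2532, 2958 and 2660 at 7 min and 485, 438 and 490 at 24 min. The times did not overlap for either gene. In BY013, RCL1 was lowest at 14 min (169), whereas BMS1 was then at 953 and went on to its lowest level at 24 min. At 7 min the log2 changes were −1.13 (SE 0.13) for RCL1 and −0.56 (SE 0.062) for BMS1, and at 24 min −3.71 and −3.08.

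NOP14, NOC4 and EMG1 act together late in the processome, EMG1 as a methyltransferase for a pseudouridine of 18S RNA. NOP14 had 2523, 2844 and 2305 at −10 min, 1462, 1567 and 1409 at 7 min and 122, 112 and 113 at 24 min. EMG1 had 6299, 6496 and 6283 at −10 min, 4453, 5253 and 4790 at 7 min and 901, 869 and 863 at 24 min. All arrays were separated by time, and those at 24 min were nearly equal among cultures. NOP14 was 22.1-fold lower at 24 min (log2 −4.46, SE 0.08, adjusted p = 4.04e-13) and EMG1 7.25-fold lower (log2 −2.86, SE 0.053, adjusted p = 4.18e-13).

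The 7 RNA helicases had the deepest median at 7 min, −1.09, and spanned −1.62 to −0.40. DHR2, a DEAH-box helicase, had 1307, 1459 and 1311 at −10 min, 337, 580 and 439 at 7 min and 121, 82.8 and 88.5 at 24 min. FAL1, a DEAD-box protein related to the translation factor eIF4A, had 1316, 1355 and 1223 at −10 min, 401, 601 and 517 at 7 min and 126, 105 and 132 at 24 min. For both genes the arrays at 7 min lay closer in intensity to those at 24 min than to those at −10 min, in all cultures. At 7 min DHR2 was 3.07-fold lower (log2 −1.62, SE 0.18, adjusted p = 2.93e-05) and FAL1 2.60-fold lower (log2 −1.38, SE 0.13, adjusted p = 1.51e-05), the largest and second largest changes among the members.

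DBP4, which releases the U14 snoRNA from the precursor, had 2054, 2086 and 2027 at −10 min, 739, 1071 and 890 at 7 min and 78.2, 58.2 and 58.6 at 24 min. The last 2 of these are at or below background, and the fitted change was 31.9-fold (log2 −5.00, SE 0.14, adjusted p = 6.23e-12). At the other end, the DEAD-box gene RRP3 had 3430, 3603 and 3353 at −10 min, 2475, 2694 and 2700 at 7 min and 532, 525 and 516 at 24 min. It changed least among the helicases at both times, by −0.40 (SE 0.049) and by −2.72 (SE 0.049). ECM16, which unwinds U3 from the precursor, ROK1, which helps to release the snR30 snoRNA, and DBP8 lay between, at −4.53 to −3.62 at 24 min.

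The other 15 processome genes were the most varied group. NSR1, the yeast nucleolin-like protein, had 7300, 7418 and 7406 at −10 min, 2969, 4370 and 3525 at 7 min and 190, 136 and 122 at 24 min. Its change at 24 min, 50.3-fold, was the largest of all members (log2 −5.65, SE 0.15, adjusted p = 6.23e-12), and all 3 arrays were still above background. The processome protein gene BFR2 had 3008, 3085 and 3039 at −10 min, 1091, 1707 and 1301 at 7 min and 115, 87.8 and 80.3 at 24 min (log2 −5.03, SE 0.15). UTP23, a PIN-domain protein that acts with snR30, had 3905, 4110 and 3886 at −10 min, 1571, 2151 and 1907 at 7 min and 182, 145 and 173 at 24 min (log2 −4.58, SE 0.11). In these 3 genes the starting levels differed little among cultures, and BY013 was the lowest culture at 7 min and the highest at 24 min.

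LCP5, coding for an essential nucleolar protein, had 1993, 2106 and 1929 at −10 min, 664, 974 and 839 at 7 min and 316, 237 and 301 at 24 min. It was among the 3 largest changes at 7 min (2.46-fold lower, log2 −1.30, SE 0.13, adjusted p = 2.02e-05), but at 24 min its change of −2.83 (SE 0.13) was smaller than the median of the members. UTP22 belongs to the UTP-C subcomplex and also occurs in a complex with the ribosomal protein gene regulator Ifh1. It had 3395, 3446 and 3648 at −10 min, 2643, 3050 and 2856 at 7 min and 841, 849 and 832 at 24 min. The 3 cultures were nearly identical at 24 min, where UTP22 was 4.16-fold lower (log2 −2.06, SE 0.054, adjusted p = 5.1e-12). UTP30, which is not needed for growth, had 1995, 2056 and 2034 at −10 min, 1204, 1350 and 1379 at 7 min and 859, 825 and 852 at 24 min. Its change at 7 min (log2 −0.63, SE 0.057) was near that of many members, and its change at 24 min (2.40-fold lower, log2 −1.26, SE 0.057, adjusted p = 6.02e-10) was the smallest of all.

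**Figure D2:**
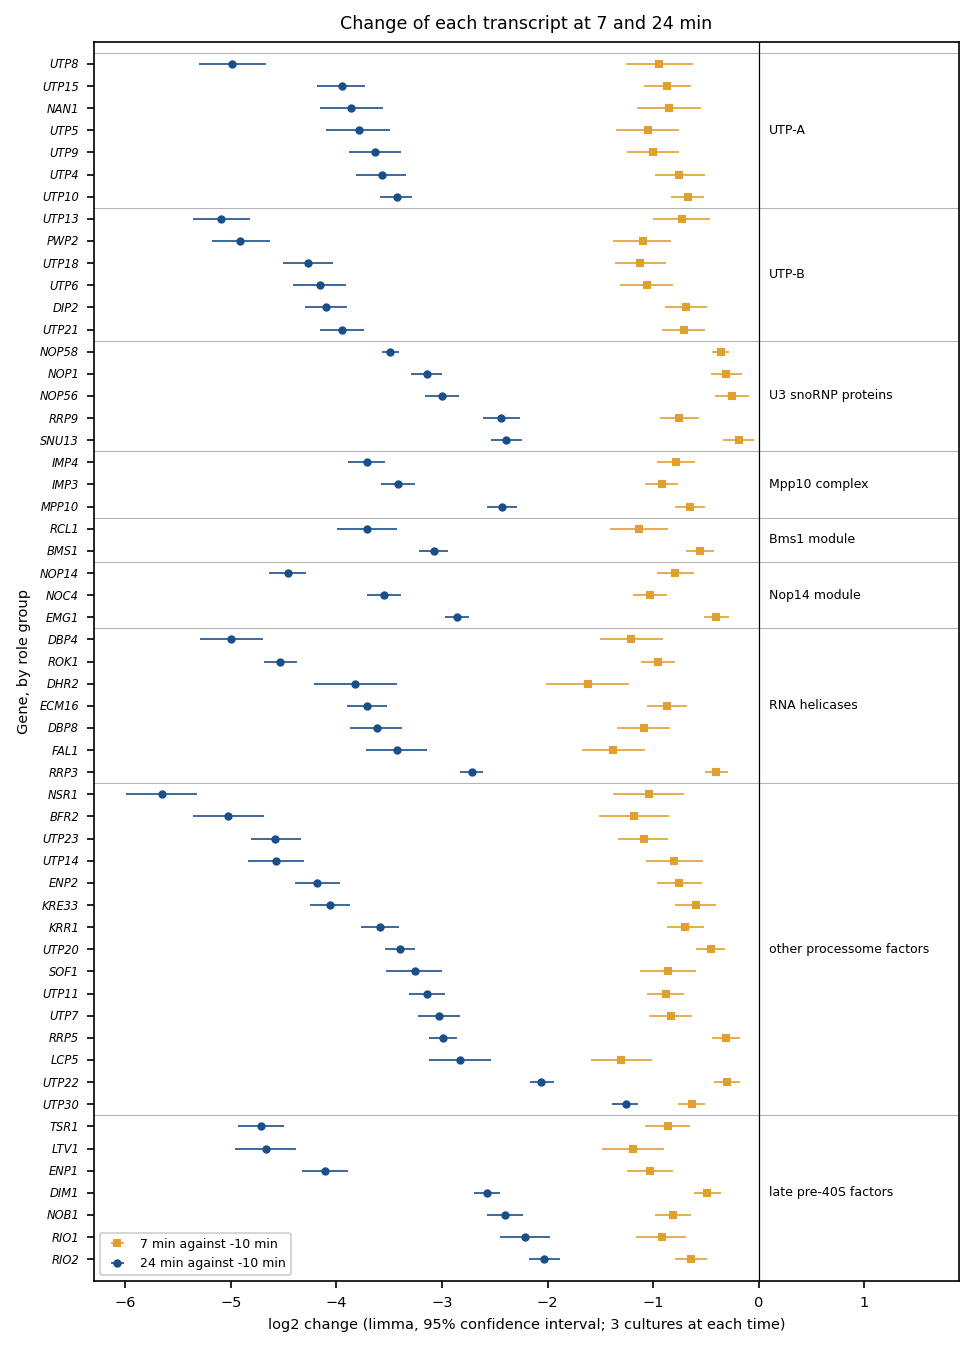
Log2 change of each transcript (points) with its 95% confidence interval (bars) at 7 min (orange squares) and 24 min (blue circles) against −10 min, by role group. All intervals lie below 0, with changes from −5.65 for NSR1 to −1.26 for UTP30 at 24 min and from −1.62 for DHR2 to −0.19 for SNU13 at 7 min.

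Among the 7 late factors, which act on pre-40S particles up to the cytoplasm, the changes at 24 min were far apart. TSR1, a GTPase-like protein that keeps translation factors off the pre-40S, had 3829, 4018 and 3612 at −10 min, 1818, 2467 and 2057 at 7 min and 159, 143 and 135 at 24 min, and was 26.3-fold lower at 24 min (log2 −4.71, SE 0.099, adjusted p = 1.05e-12). LTV1 and ENP1, which bind the same region of the particle, changed alongside it by −4.67 (SE 0.13) and −4.11 (SE 0.099), with LTV1 at or below background in 1 of the 3 cultures. RIO2, an atypical kinase, had 2162, 2251 and 2179 at −10 min, 1291, 1495 and 1441 at 7 min and 569, 494 and 553 at 24 min. It was 4.08-fold lower (log2 −2.03, SE 0.069, adjusted p = 4.51e-11), near RIO1 at −2.21 (SE 0.11) and NOB1, the nuclease that makes the 3′ end of 18S RNA, at −2.40 (SE 0.078). DIM1, the dimethyladenosine transferase, had 4825, 4704 and 4863 at −10 min, 3118, 3670 and 3503 at 7 min and 792, 842 and 787 at 24 min (log2 −2.57, SE 0.057). None of the 4 genes RIO1, RIO2, NOB1 and DIM1 was as much as 8-fold lower, while TSR1, LTV1 and ENP1 were each at least 17.3-fold lower.

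The culture with the largest fall was not the same at 7 min and at 24 min for most members. The median log2 change of the members at 7 min was −1.0 in BY013, −0.68 in BY009 and −0.81 in BY010, each against the −10 min array of the same culture. At 24 min it was −3.45, −3.71 and −3.69. Over all probe sets the medians were −0.01, −0.05 and 0.02 at 7 min and 0.12, 0.02 and 0.11 at 24 min. The order of the cultures at 7 min was not particular to the members. Assembly factors of the 60S subunit had medians of −0.96, −0.61 and −0.77, and 40S assembly factors outside the members −0.81, −0.57 and −0.66. BY013 showed the largest change of the 3 cultures for 51 members at 7 min but for 8 members at 24 min, where BY009 did so for 32 and BY010 for 15. The members more than 2-fold lower at 7 min numbered 28 in BY013, 5 in BY009 and 17 in BY010, of which DHR2, FAL1, LCP5 and LTV1 were shared by all cultures. At 24 min all 55 were more than 2-fold lower in each culture. For the counts in this paragraph the shares over all probe sets were not computed, so they describe the members only. The time of depletion was read in each culture separately. Its part in these differences was not tested.

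Many of the same members nevertheless stood at either end of the order in all cultures, by the share described next. The change at 7 min as a percent of that at 24 min had a median of 28.4% in BY013, 17.5% in BY009 and 21.7% in BY010. These medians were not particular to the members. Over all probe sets they were 28.6%, 19.8% and 26.2%, and over the 60S assembly factors 25.9%, 15.9% and 19.7%. UTP30, LCP5, DHR2, RIO1, FAL1, NOB1, RIO2 and DBP8 were among the 10 members with the highest share in every culture. UTP30 had 59.9%, 46.1% and 44.8%, and LCP5 headed BY010. A share is also high where the change at 24 min is small. UTP30 changed by −0.63 at 7 min, less than the members' median of −0.83, and by −1.26 at 24 min, beside −3.62. SNU13, NOP56, NOP1, NOP58, EMG1 and UTP20 were among the 10 lowest in every culture. The 4 box C/D core genes had median shares of 10.3%, 8.9% and 8.3%, against 29.8%, 17.8% and 23.2% for the other 51 members. The lowest single values were 8.8% and 7.2% for SNU13 in BY013 and BY009 and 6.3% for NOP56 in BY010. Low shares were not confined to the core. RRP5 had 9.7%, 14.2% and 7.5%, UTP20 17.8%, 7.9% and 14.1%, and UTP13 19%, 8% and 16.1%.

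**Figure D3:**
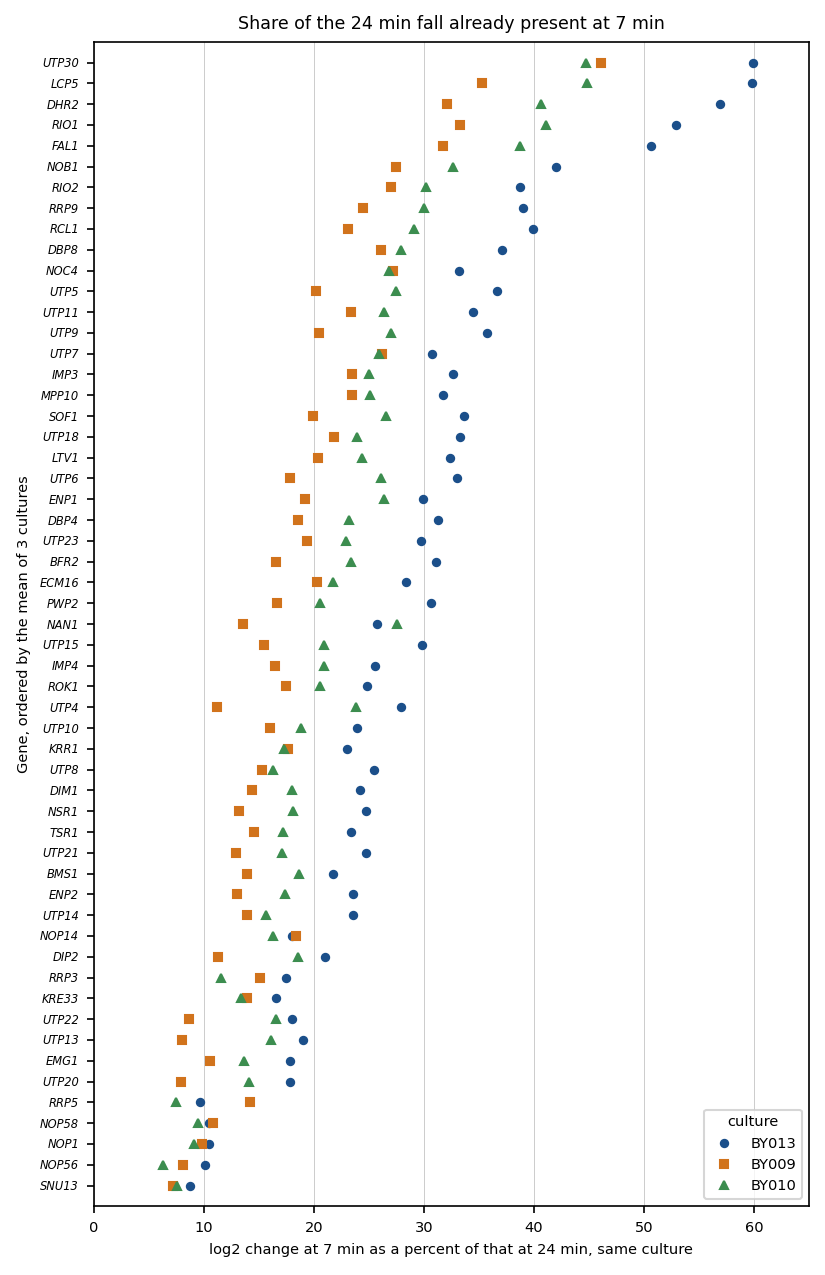
Log2 change at 7 min as a percent of the log2 change at 24 min in the same culture, for each member (rows, ordered by the mean of the cultures) and culture (symbols). UTP30, LCP5 and DHR2 stand at the top, SNU13, NOP56, NOP1 and NOP58 near or below 10% at the bottom, and BY013 is mostly the culture farthest to the right.

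In BY013, the culture sampled most often, the fall was followed through the point of depletion. At −5 min none of the members passed, 0 of 55 by limma with 0 at an unadjusted p under 0.05 and 0 under every alternative (0.0182% of all probe sets passed as lower), and the median change was −0.10, with 50 of 55 below 0. Of the 5498 probe sets, 584 had an unadjusted p under 0.05 at −5 min, in either direction. At 3 min all 55 were below 0, with a median of −0.42 and a lowest value of −0.92 for DHR2. The median over all probe sets was 0 at −5 min and 0.02 at 3 min. The share of all probe sets below 0 was not computed, so these counts by sign describe the members only. Of the members 48 had an unadjusted p under 0.05, where 1152 of all probe sets did, in either direction. After adjustment 4 passed as lower (1.13% of all probe sets did): IMP3, ROK1, ENP1 and NOB1, with log2 changes of −0.58 to −0.45 and adjusted p of 0.0408 to 0.044. This count was not stable: with the culture as a block it was 0, without BY010 it was 0 and without BY009 it was 42. At 10 min (25.5% of all probe sets lower) and at 14 min (29.4%) all 55 members were lower, with medians of −1.68 and −2.79. These times had 1 array each, so their tests borrow the spread of the times with 3 cultures.

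From step to step the fall went on in nearly all members. At 10 min against 7 min 52 were lower (12% of all probe sets) and at 14 min against 10 min 51 were (7.68%), with medians of −0.85 and −0.95. At 24 min against 7 min 55 were lower (29.9% of all probe sets), with a median of −2.83 and a range of −4.61 for NSR1 to −0.63 for UTP30. In BY013 the lowest of the samples between 3 and 120 min was the one at 24 min for 46 members, against 13% of all probe sets. LCP5, DHR2, UTP30, RIO1, FAL1 and RCL1 were lowest at 14 min, NOP1 and DIM1 at 56 min, and UTP22 at 120 min.

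The time at which a transcript had covered the first 50% of its fall on the log2 scale, read by interpolation in BY013, had a median of 10.3 min over the 55 members. LCP5 (6.4 min), DHR2 (6.5), UTP30 (6.6), RIO1 (6.7) and FAL1 (7.1) came first. NOP58 (14.9), NOP1 (15.4), NOP56 (16), SNU13 (16.2) and RRP5 (16.4), whose product serves both subunits, came last, and the U3-specific RRP9 was at 8.3 min. The medians of the role groups without the U3 proteins lay between 9.6 min for the Mpp10 complex and 11.7 min for the Nop14 module. On the linear scale the median was 6.2 min, and the same 5 genes were the last, at 10.9 min for NOP58 to 13 min for SNU13. The first genes changed in part, to DHR2 (3.1 min), FAL1 (3.6), LCP5 (4), RIO1 (4.6) and DBP4 (4.6), with UTP30 at 5.4 min. These times come from 1 culture and have no replicate error, and they rest on the sampling times of the labels.

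Late members were also bright ones. NOP58, NOP1, NOP56, SNU13 and RRP5 had mean intensities of 11824, 12001, 8500, 15757 and 6725 at −10 min. Across the 55 members the Spearman rho of the log2 intensity at −10 min with the time of the midpoint was 0.69, given as a description since the points share arrays and a culture. NSR1, with a mean of 7374, was at 10.8 min, and EMG1, with 6360, at 11.7 min. The part of probe brightness in the order of the genes was not tested.

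**Figure D4:**
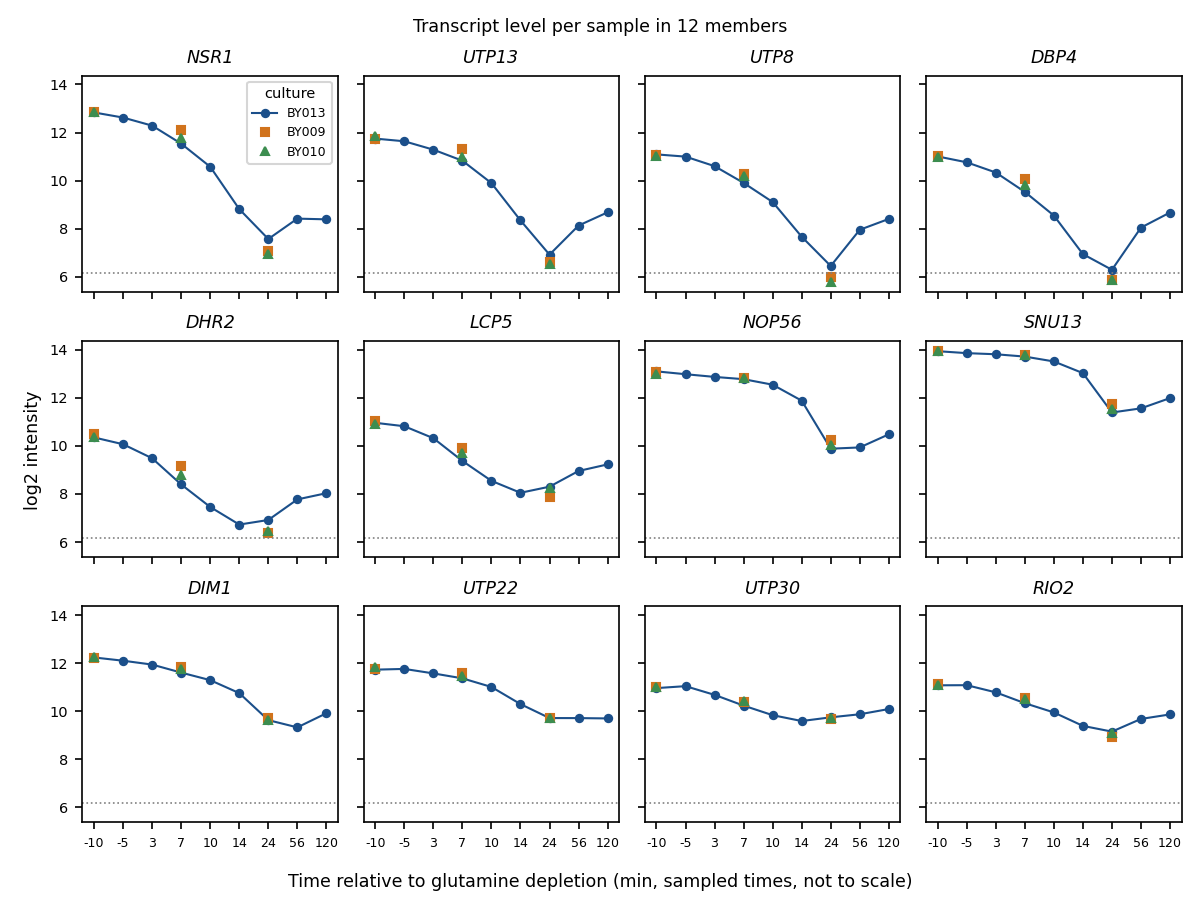
Log2 intensity of 12 members (panels) at the 9 sampled times, with culture BY013 as a line and BY009 and BY010 as single points, and the background level dotted. NSR1, UTP13, UTP8 and DBP4 fall to near the background by 24 min, NOP56 and SNU13 fall little up to 10 min, and UTP22 is flat from 24 to 120 min.

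After 24 min most members came back in part. At 56 min against 24 min 48 of 55 were higher (32.6% of all probe sets), with a median log2 change of 1.01 beside 0.08 over all probe sets, and 1, DIM1, was lower (log2 −0.33, SE 0.081, adjusted p = 0.00651), beside 12.2% of all probe sets. NOP1, NOP56, SNU13, UTP22, UTP30 and RRP5 passed in neither direction, with values of −0.14 to 0.22. At 120 min against 24 min 54 were higher (30.2% of all probe sets), with a median of 1.37. Of the 1936 probe sets that were lower at 24 min against −10 min, 43.1% were higher at 120 min than at 24 min, and of the 55 members 54 were. Within BY013 alone, with no error, the medians were 0.86 at 56 min and 1.28 at 120 min against 24 min. By sign alone 52 and 54 members were higher there, and the share of all probe sets by that measure was not computed.

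The largest gains at 120 min were in DBP4, UTP23 and BFR2, which had fallen far. Gain and fall share the arrays at 24 min, so they are not independent. NSR1, which had fallen farthest (log2 −5.65), regained 15.6% of its fall in BY013. DBP4 had 408 at 120 min and 264 at 56 min, against 78.2, 58.2 and 58.6 at 24 min, a change of 2.66 at 120 min (6.34-fold higher, SE 0.19, adjusted p = 3.43e-07). Since 2 of its 3 arrays at 24 min were at or below background, the size of this change is uncertain. UTP23 had 906 at 120 min, against 182, 145 and 173 at 24 min (log2 2.45, SE 0.15, adjusted p = 1.25e-07). BFR2 had 471 at 120 min, against 115, 87.8 and 80.3 at 24 min (log2 2.34, SE 0.22, adjusted p = 3.06e-06). Its lowest arrays at 24 min were close to the background of 72.2, and under the alternatives its gain was 1.86 to 2.34. For these genes the array at 120 min stood clear above all 3 at 24 min and well below all 3 at −10 min.

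The smallest were in UTP22, DIM1 and UTP30. UTP22 had 832 at 120 min and 840 at 56 min, against 841, 849 and 832 at 24 min, and its change of −0.01 did not pass (95% confidence interval −0.18 to 0.15, adjusted p = 0.894 by limma). With the culture as a block it was 0.03 (adjusted p = 0.765). DIM1 had 966 at 120 min and 643 at 56 min, against 792, 842 and 787 at 24 min, and passed as higher at 120 min (log2 0.26, SE 0.081, adjusted p = 0.0186), a call that was lost without BY010 (adjusted p = 0.0972). UTP30 had 1091 at 120 min, against 859, 825 and 852 at 24 min (log2 0.37, SE 0.08, adjusted p = 0.00235). The 5 genes of the U3 group, RRP9 as well as the box C/D core, gained 0.43 to 0.77.

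None of the members was back at its starting level by 120 min. At 56 min against −10 min all 55 were lower (29.7% of all probe sets), with a median of −2.71, and at 120 min against −10 min all 55 were (32.9%), with a median of −2.26 and a range of −4.46 for NSR1 to −0.88 for RIO1. In BY013 the members had regained a median of 36.4% of their log2 fall by 120 min. RIO1 had regained 55.8%, ENP1 53.4%, UTP23 52.3% and BMS1 51.2%. At the low end, NSR1 had regained 15.6%, DIM1 11% and UTP22 nothing (−0.8%). The box C/D core had regained a median of 20.3%, and RRP9 of the same U3 group was alike at 20.5%. At 120 min against 56 min 16 were higher (4.64% of all probe sets), the largest change being that of the acetyltransferase gene KRE33 (0.81, SE 0.15, adjusted p = 0.00799). That count was 3 without BY010 and 33 without BY009.

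The rest of the ribosome's genes gave the setting for these values. Of 59 assembly factors of the 60S subunit 59 were lower at 24 min (35.2% of all probe sets were), with a median of −3.91 (−5.48 for DBP3 to −0.94 for TIF6). Their median midpoint in BY013, 10.5 min, was near the 10.3 min of the members. Of 52 genes for 40S ribosomal proteins, the parts that the members assemble, 1 was lower at 7 min (20.9% of all probe sets), against all 55 members. At 24 min 52 were lower (35.2% of all probe sets), with a median of −0.41 (−2.03 for RPS9A to −0.11 for RPS23A). The ribosomal protein transcripts had their median midpoint at 30.9 min, an interpolated time, since no sample was taken between 24 and 56 min. They stood at a median of −1.36 at 120 min. Of the 52, 50 were lower at 120 min than at 24 min (21% of all probe sets were), when 54 of 55 members were higher. These lists are given beside the members as counts and medians, and the differences between lists were not tested.

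**Figure D5:**
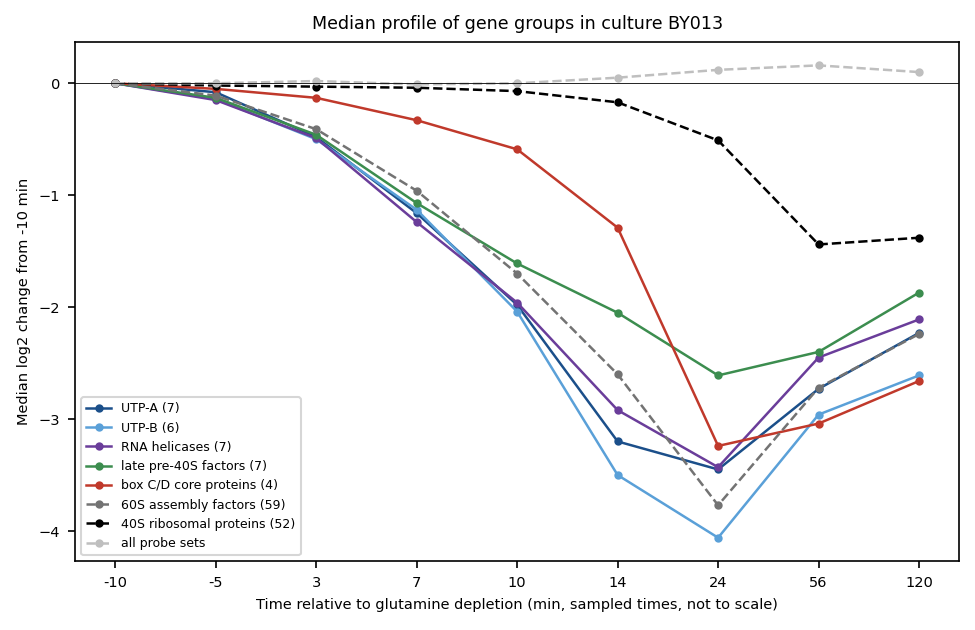
Median log2 change from −10 min in culture BY013 at each sampled time, for 5 groups of members (solid lines, number of genes in brackets) and for 60S assembly factors, 40S ribosomal proteins and all probe sets (dashed lines). The members are lowest at 24 min and partly back at 120 min, the box C/D core lags up to 14 min, and the ribosomal proteins go down after 24 min.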

How the data were processed

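Affymetrix yeast arrays were analysed for 15 samples of the N-downshift. A deposited value is the linear intensity of 1 probe set on 1 array. As the methods describe them, the authors corrected the background as RMA does, kept perfect-match probes, normalized the 15 arrays together with QSPLINE and summarized probes after Li and Wong. R 2.10.0, affy and RMA are the tools in the submitters' processing notes. No scanner values were used here, and a scaling across arrays could hide a shift common to all transcripts.

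Each intensity was put on the log2 scale with no pseudocount. The fit was made in limma 3.58.1 (R 4.3.3) with 1 mean per time and eBayes with trend, which left 6 residual degrees of freedom. Benjamini-Hochberg adjustment ran over 5498 single-gene probe sets in each of 14 comparisons, with 0.05 as the threshold. The fit was tested on simulated data. The brightest probe set stood for a gene, and times are those of the labels. The number of arrays limits the precision. Replicates were separate cultures (r at least 0.996 within a time).

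The experiment label ties samples of different times to 1 culture. Deviations from the time means correlated between −0.271 and 0.189 within a culture, and a replicate block for culture was tried as an alternative. Further alternatives were a random block, quantile normalization, median centring, 50 added units, a filter on dim probe sets, eBayes without trend, the 9 arrays of the replicated times, and leaving out each culture. The members and lists were chosen with earlier results of these data known. Values in every sample are given for the lowest and highest member at 24 min in each role group, the 3 lowest and 3 highest at 7 min and at 120 min against 24 min, and named other-list genes are the lowest and highest at 24 min. Promoter and protein sequences were not analysed here.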

Additional observations from a re-analysis of the deposited data

How the results depend on the processing

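All 55 members passed as lower at 10, 14, 24, 56 and 120 min against −10 min, and at 24 min against 7 min, under every alternative run for these comparisons, and at 7 min 53 to 55 did. The median change at 24 min against −10 min was −3.42 with quantile normalization and −3.35 with 50 units added, against −3.62, and that at 24 min against 7 min was −2.64 with 50 units added. Quantile normalization also gave medians of −2.91 at 56 min against −10 min, of 0.66 at 56 min and of 1.09 at 120 min against 24 min. With only the 24 min array of BY013, an alternative chosen after seeing the data, these last 2 were 0.86 and 1.28. The 4 members called at 3 min became 0 with the culture as a replicate block, 21 with quantile normalization, 9 with median centring, 11 with 50 units added and 0 without the trend, and 0 to 42 on leaving out a culture. The count of 16 at 120 min against 56 min became 3 to 33 on leaving out a culture. The block changed the sign of UTP22 at 120 min against 24 min (0.03, against −0.01), moved no other count of calls by over 1.5 times beyond that at 3 min and, at 7 or 24 min against −10 min and at 120 against 24 min, changed no call of the 26 members with values in every sample. The median time of the midpoint was 6.2 min on the linear scale.

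SNU13 at 7 min did not pass with quantile normalization (adjusted p = 0.104), median centring (0.199) or no trend (0.0915), nor NOP56 with median centring (0.0819). At 120 min against 24 min, quantile normalization gave UTP22 −0.24 (adjusted p = 0.0289), UTP30 0.18 (0.0546) and DIM1 0.06 (0.592), and median centring DIM1 0.22 (0.0541). The cause was not tested. UTP8, DBP4 and LTV1 touched background at 24 min, so their depth there is uncertain. PWP2, BFR2 and DHR2 came near it, with lowest values of 73.8, 80.3 and 82.8 at 24 min, which makes their depth less certain too. Times with 1 array have no spread of their own. The promoter motif alternatives were not run.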

Other observations

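Of 40 further 40S assembly factors outside the members, 35 were lower at 24 min against −10 min and 5 were higher, where 35.2% and 46.9% of all probe sets were, with a median of −2.27. RRP36 was lowest at −4.98 (SE 0.14, adjusted p = 7.98e-12 by limma). The 5 that were higher, named after their values had been seen, were SQS1 (0.39), CKB2 (0.24), HRR25 (0.22), CKB1 (0.17) and CKA2 (0.14). CKA2, CKB1 and CKB2 code for subunits of casein kinase 2 and HRR25 for a casein kinase 1, which phosphorylate many proteins outside ribosome assembly. CKA1 was the only subunit gene of casein kinase 2 that was lower (−0.11, SE 0.043, adjusted p = 0.028), while UTP22, whose product joins this kinase in UTP-C, was at −2.06 and RRP7, another UTP-C gene, at −0.96 (SE 0.05).

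Of 15 genes for RNA polymerase I and its initiation factors, 13 were lower at 24 min and 1 was higher, with a median of −2.02. Of all probe sets 35.2% were lower and 46.9% higher. The subunit gene RPA49 was lowest (−5.16) and RRN10, of the upstream activating factor, highest (0.33). In BY013 the median midpoint of the 14 that had a fall was 10.6 min.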
